A study of Bos taurus with 16 samples.

Results

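Aminoacyl-tRNA synthetases attach each amino acid to its transfer RNA (tRNA), and their mRNAs were followed here in single bovine oocytes and embryos developed in vivo. The genes were chosen by name from a list of 36, of which 20 encode cytosolic enzymes and 16, with names ending in 2, encode mitochondrial ones. Of the list, 34 names were found among the 27393 loci, 20 of 20 cytosolic and 14 of 16 mitochondrial. EARS2 and VARS2, the mitochondrial enzymes for glutamate and valine, were not found by name and are not analysed here. FARSB, a subunit of the enzyme for phenylalanine, has 3 loci, and the one with the highest mean was used.

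A cell charges tRNAs in the cytosol and again in its mitochondria, where a separate set of enzymes, encoded in the nucleus, serves the tRNAs of the mitochondrial genome. GARS and KARS, the enzymes for glycine and lysine, are the known exceptions, since each gene serves both compartments. Here both stand with the cytosolic genes because of their names. In the cytosol of animals, a group of these enzymes is held together with the scaffold proteins AIMP1, AIMP2 and EEF1E1 in the multisynthetase complex, while the others work as free enzymes. A cleaving embryo starts with maternal mRNAs stored in the oocyte and later turns to transcripts of its own genome, a change called embryonic genome activation (EGA).

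The samples were mature oocytes (MII), embryos of 2, 4, 8 and 16 cells (2C, 4C, 8C and 16C), early morulae (EM), compact morulae (CM) and blastocysts (BL), with 2 samples at each of the 8 stages. Each sample was 1 oocyte or 1 embryo, matured or developed in the animal, with no treatment or mutation in the labels, and its RNA went through 2 rounds of amplification before sequencing on the SOLiD platform. The study places EGA of in vivo embryos between the 4- and 8-cell stages, so the MII, 2C and 4C samples (6) were taken as before EGA and the remaining 10 samples as after it. The question was how the synthetase mRNAs, and those of the cytosolic and of the mitochondrial enzymes, differed across the stages.

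Between 607672 and 3379426 reads per sample were recovered, and levels are given in CPM, the reads of a locus per 1000000 reads of its sample, not divided by gene length, as mean ± SD. A floor of 3 reads was 0.888 to 4.94 CPM, which covers counting error only. The locus with most reads took 7.44 to 27.0% of a sample before EGA and 1.54 to 5.90% after it. Summed mRNAs of 8 oocyte markers were 2911 to 10060 CPM before EGA and 4.91 to 1417 CPM after it, with BMP15 listed at 0 in every sample. The highest value after EGA was that of 8C replicate 2, against 26.0 CPM in 8C replicate 1. Summed trophectoderm markers were 1266 and 1182 CPM in BL, where CDX2, a defining marker, was at or near 0. Before BL, 16C replicate 2 had 309 CPM of these markers (47.9 in 16C replicate 1) and CM replicate 1 had 120 CPM (2.14 in CM replicate 2). The summed list of 8 cumulus and granulosa markers was 79.3 to 322 CPM before EGA and 0 to 31.7 CPM after it. It was mostly HAS2 (68.7 to 298 CPM before EGA and 0 to 18.3 CPM after it), with CYP19A1 at 3.55 to 24.3 CPM and FSHR at 1.48 to 9.20 CPM before EGA, PTX3 and INHBA at 2.66 CPM or less, and TNFAIP6 at 0 before EGA. AMH and FOXL2 were at 0 in every sample. The part of these differences in the results below was not tested, and a change in the RNA of each cell cannot be told apart from a change in the number or kind of cells in an embryo.

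Reads were found for 32 of the 34 genes. EPRS, the enzyme for glutamate and proline, and IARS2, the mitochondrial enzyme for isoleucine, are listed at 0 in all samples, and both stand in a run of 2578 loci with consecutive identifiers that are all at 0. In all 16 samples, reads were present for 13 genes, 10 cytosolic and 3 mitochondrial (RARS2, WARS2 and YARS2). Summed over samples, the 34 genes had between 0 and 3211 reads each, with the highest number on MARS, which loads methionine also on the initiator tRNA. Of the mitochondrial genes, YARS2, the enzyme for tyrosine, had the highest number, 1061 reads.

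**Figure D1:**
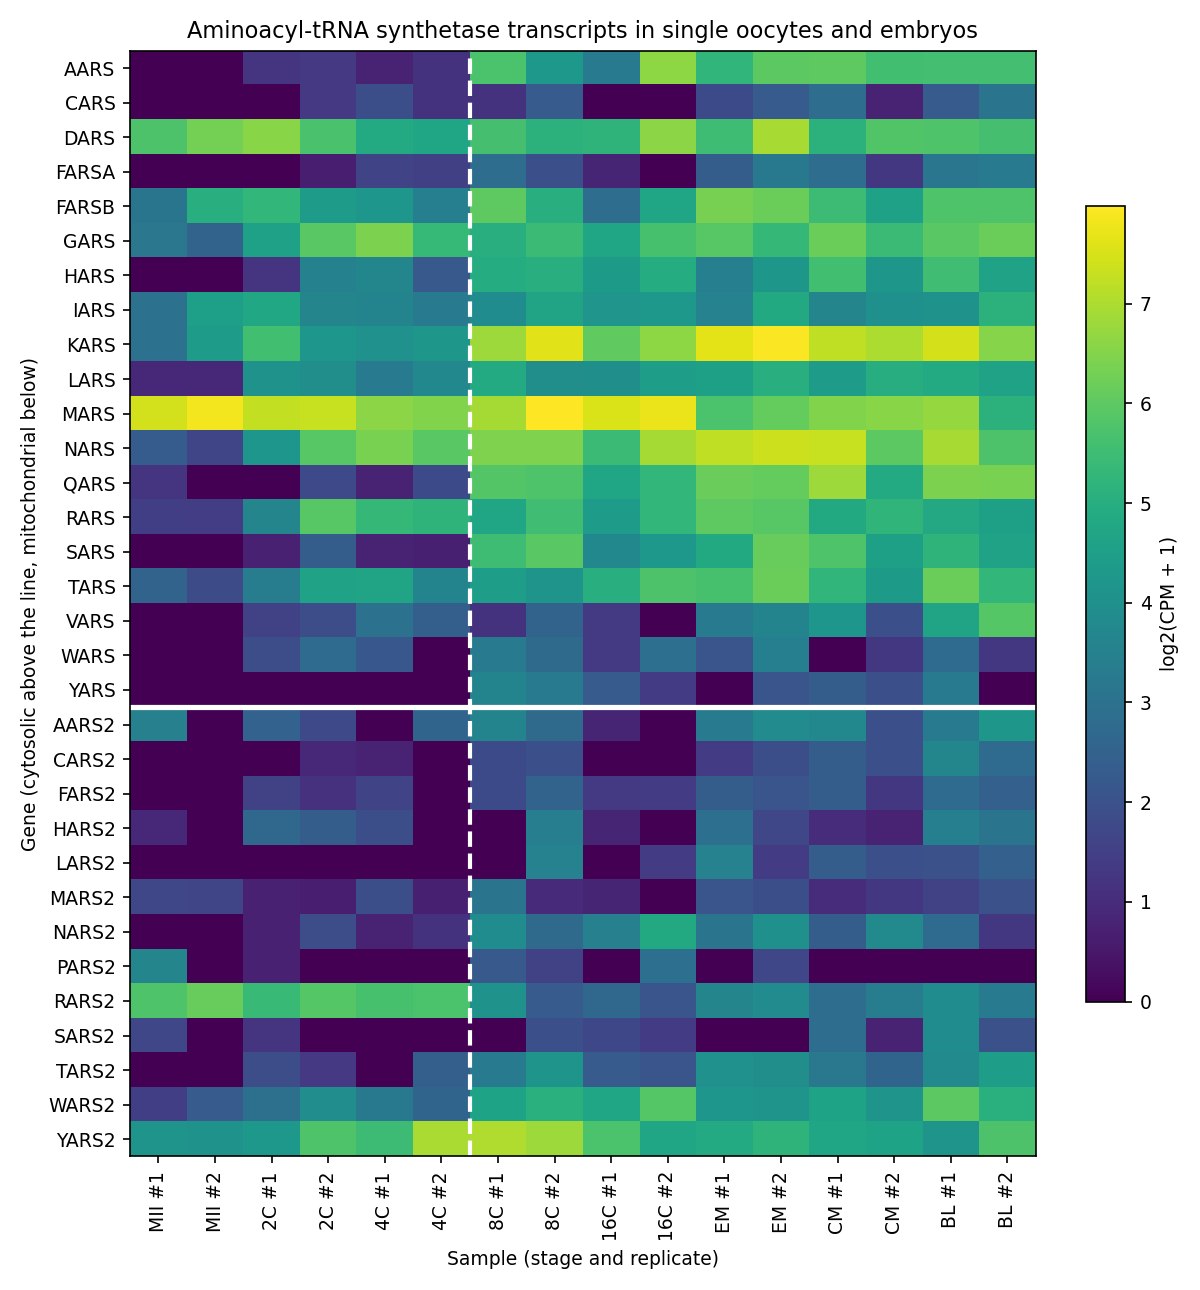
Levels of the 32 synthetase mRNAs with reads, as log2(CPM + 1), with a row for each gene (cytosolic above, mitochondrial below) and a column for each sample in order of stage. The rows of QARS, AARS and SARS are near 0 up to 4C and high from 8C onwards, and the row of RARS2 is high up to 4C and low from 8C onwards.

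Across the 8 stages, 26 of the 34 genes passed the filter on low counts. A stage effect was found for 17 of these (limma F test, adjusted p under 0.05), 13 of 18 cytosolic and 4 of 8 mitochondrial genes. Of all 9670 loci tested, 66.7% passed, which is close to the share of these genes. The genes without a call included IARS, the enzyme for isoleucine (adjusted p = 0.78, limma), DARS, the enzyme for aspartate (adjusted p = 0.163, limma), and FARSB (adjusted p = 0.148, limma). GARS (adjusted p = 0.0546, limma) and YARS2 (adjusted p = 0.0514, limma) lay close to the threshold.

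At EGA, mRNAs of the cytosolic enzymes were higher afterwards or not called, and none was called lower. Of the 14 cytosolic genes that passed the filter, 8 rose, among them QARS, AARS and SARS with fitted differences above 4 on the log2 scale. Of the 5 mitochondrial genes that passed it, TARS2 and WARS2 rose and RARS2 fell. Among all 6910 loci tested, 36.9% were called higher and 29.9% lower. The count of 0 cytosolic genes called lower by limma was also 0 at an unadjusted p under 0.05, and 0 by edgeR and by DESeq2. The median difference was 1.42 for the cytosolic and 0.84 for the mitochondrial genes, against 0.23 for all loci, on the scale of log2(deposited value + 1). A gene that passed the filter only through its level after EGA had to differ, so these counts and medians describe the genes tested and not the whole family. QARS, AARS, SARS and TARS2 were such genes, at most 4.30 CPM in each sample before EGA.

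QARS, the cytosolic enzyme for glutamine, was 1.33 and 0 CPM in MII, 0 and 2.37 CPM in 2C, and 0.694 and 2.46 CPM in 4C. It was 56.9 and 53.9 CPM in 8C, 24.7 and 37.9 CPM in 16C, 70.3 and 67.0 CPM in EM, 112 and 28.6 CPM in CM, and 83.5 and 82.2 CPM in BL. Every sample after EGA was above every sample before it, and the higher CM value was that of replicate 1. The means were 1.14 ± 1.10 CPM (n = 6) and 61.7 ± 27.1 CPM (n = 10), and the fitted difference was 4.81 on the log2 scale (SE 0.44, adjusted p = 6.9e-09, limma).

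AARS, which charges alanine, was not read in either MII oocyte, at 1.33 and 1.48 CPM in 2C and at 0.694 and 1.23 CPM in 4C. It then stood at 52.0 and 18.3 CPM in 8C, 8.50 and 98.7 CPM in 16C, 36.8 and 62.0 CPM in EM, 63.6 and 46.4 CPM in CM, and 47.2 and 47.0 CPM in BL. The periods did not overlap, although the 16C embryos were far apart from each other, with the higher value in the replicate that also had the higher sum of trophectoderm markers, whose part was not tested. AARS rose by 4.65 on the log2 scale (SE 0.46, adjusted p = 2.2e-08, limma).

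SARS, the cytosolic enzyme for serine, was at 0 in both MII oocytes, at 0.666 and 4.14 CPM in 2C, and at 0.694 and 0.615 CPM in 4C. Its level was 44.5 and 60.6 CPM in 8C, 12.4 and 18.1 CPM in 16C, 27.8 and 69.2 CPM in EM, 54.3 and 22.1 CPM in CM, and 35.4 and 23.5 CPM in BL. Again the lowest sample after EGA was above the highest before it. SARS rose by 4.31 on the log2 scale (SE 0.46, adjusted p = 7.1e-08, limma).

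HARS, the enzyme for histidine, was at 0 in both MII oocytes, at 1.33 and 10.4 CPM in 2C and at 11.8 and 3.69 CPM in 4C. From 8C onwards it was 29.7 and 30.8 CPM in 8C, 19.3 and 29.6 CPM in 16C, 9.81 and 17.7 CPM in EM, 46.1 and 17.9 CPM in CM, and 45.2 and 23.5 CPM in BL. EM replicate 1 lay below 2 of the samples before EGA, so the periods overlapped. The fitted rise was 2.85 on the log2 scale (SE 0.60, adjusted p = 2.8e-04, limma).

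The other cytosolic genes that rose were KARS, NARS, LARS and TARS. KARS went from 20.6 ± 13.2 CPM (n = 6) to 146 ± 57.2 CPM (n = 10) without overlap, a rise of 2.40 on the log2 scale (SE 0.34, adjusted p = 3.2e-06, limma). NARS, for asparagine, rose by 1.77 (SE 0.53, adjusted p = 0.00567, limma), LARS, for leucine, by 1.45 (SE 0.46, adjusted p = 0.00903, limma) and TARS, for threonine, by 1.38 (SE 0.39, adjusted p = 0.00402, limma), each with overlap between the periods. NARS and LARS were not called by edgeR on the recovered reads (adjusted p = 0.113 and 0.081). Among the cytosolic genes tested, KARS, QARS, AARS and SARS were thus the 4 whose samples did not overlap, beside 16.0% of all loci in that direction.

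RARS2, which loads arginine on its mitochondrial tRNA, was the only synthetase called lower after EGA. It was 54.5 and 68.4 CPM in MII, 40.6 and 57.7 CPM in 2C, and 50 and 51.6 CPM in 4C. It was 16.1 and 3.85 CPM in 8C, 5.41 and 3.29 CPM in 16C, 11.4 and 13.3 CPM in EM, 6.15 and 9.28 CPM in CM, and 13.8 and 8.81 CPM in BL. No sample after EGA reached the lowest sample before it, beside 14.1% of all loci in that direction. RARS2 fell by 3.05 on the log2 scale (SE 0.41, adjusted p = 1.4e-06, limma), and it was called in each of 27 alternatives.

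TARS2, the mitochondrial enzyme for threonine, was at 0 in MII, at 2.66 and 1.48 CPM in 2C, and at 0 and 4.30 CPM in 4C. Its level was 8.66 and 16.4 CPM in 8C, 3.86 and 3.29 CPM in 16C, 15.5 and 14.4 CPM in EM, 8.20 and 5.0 CPM in CM, and 12.8 and 20.6 CPM in BL. The periods overlapped through 4C replicate 2 and the 16C embryos. The rise was 2.44 on the log2 scale (SE 0.51, adjusted p = 2.7e-04, limma). WARS2, for tryptophan, went from 6.59 ± 4.23 CPM (n = 6) to 30.7 ± 16.4 CPM (n = 10), a rise of 1.72 on the log2 scale (SE 0.42, adjusted p = 0.00105, limma).

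**Figure D2:**
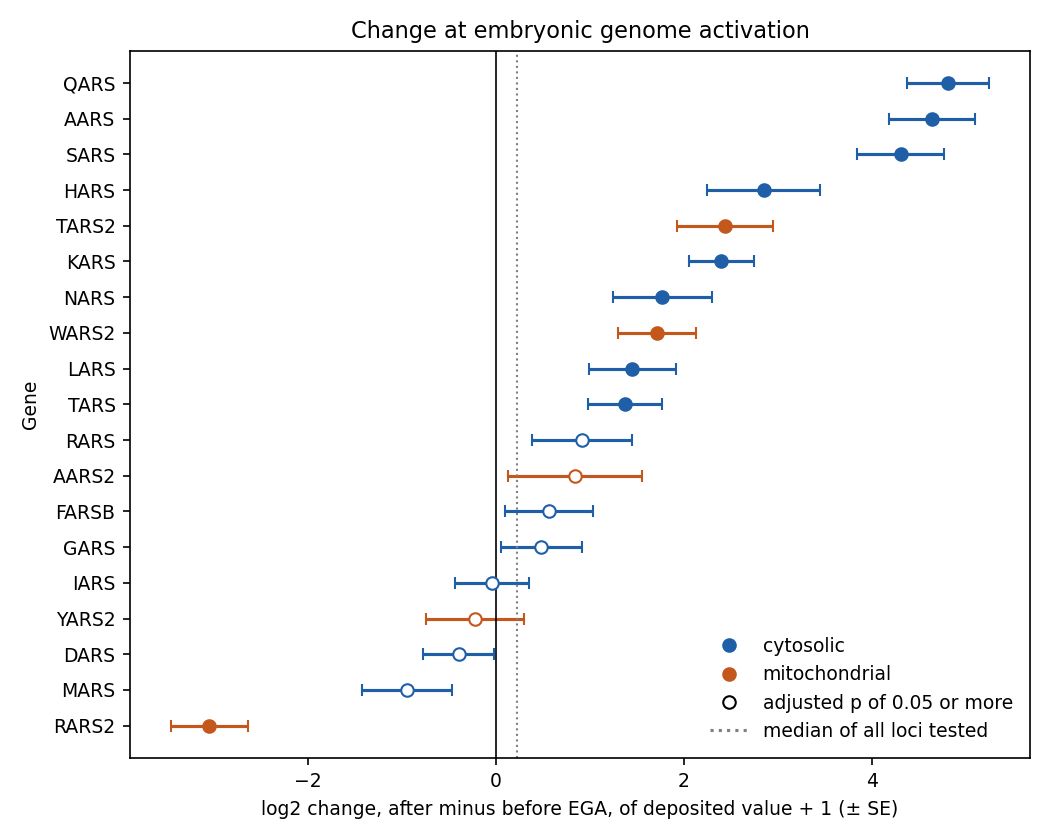
Difference after minus before EGA (MII, 2C and 4C, 6 samples, against 8C, 16C, EM, CM and BL, 10 samples) for the 19 synthetase genes tested, as fitted by limma on log2(deposited value + 1), with bars for the standard error. QARS, AARS and SARS lie above 4, RARS2 at -3.05, and the 8 genes that did not pass the threshold lie between -0.95 and 0.92.

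MARS had the highest mean of the cytosolic genes, 131 CPM over the 16 samples, and its largest values were on both sides of EGA. It was 171 and 228 CPM in MII, 152 and 159 CPM in 2C, and 95.8 and 88.5 CPM in 4C. The values were 120.0 and 252 CPM in 8C, 182 and 214 CPM in 16C, 51.5 and 68.1 CPM in EM, 88.2 and 92.8 CPM in CM, and 105 and 33.8 CPM in BL. Both 4C embryos were below both MII oocytes, and all samples from EM onwards were below 8C replicate 1 and the other 8C and 16C embryos. Neither the step from 4C to 8C (0.90, adjusted p = 0.21, limma) nor that from 16C to EM (-2.24, adjusted p = 0.122, limma) was called. The stage effect passed the threshold (adjusted p = 0.00196, limma), while the comparison before and after EGA did not (difference -0.95, SE 0.48, adjusted p = 0.0857, limma). MARS was called lower after EGA when 8C replicate 2 was left out (-1.11, adjusted p = 0.0415, limma).

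YARS2 had the highest mean of the mitochondrial genes, 48.3 CPM. It was 16.4 and 15.8 CPM in MII, 18.0 and 54.5 CPM in 2C, and 43.8 and 124 CPM in 4C. It was 131 and 111 CPM in 8C, 51.8 and 24.7 CPM in 16C, 28.6 and 35.4 CPM in EM, 24.6 and 23.6 CPM in CM, and 16.7 and 52.8 CPM in BL. The highest values lay around EGA, in 4C replicate 2 and both 8C embryos, and no difference between the periods was called (-0.22, adjusted p = 0.717, limma).

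The remaining genes tested at EGA were not called. RARS, the cytosolic enzyme for arginine, differed by 0.92 (adjusted p = 0.134, limma), AARS2, for alanine, by 0.84 (adjusted p = 0.303), FARSB by 0.57 (adjusted p = 0.296) and GARS by 0.48 (adjusted p = 0.327). DARS differed by -0.40 (adjusted p = 0.366, limma) and IARS by -0.04 (adjusted p = 0.936). RARS was called higher when 2C replicate 2 was left out (1.30, adjusted p = 0.0373, limma). Within the cytosolic set, 3 of the 7 tested genes of the multisynthetase complex rose, with a median of 0.92, and 5 of the 7 tested genes of free cytosolic enzymes, with a median of 1.77, beside 36.9% of all loci and their median of 0.23. The difference between these sets was not tested.

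YARS, the cytosolic enzyme for tyrosine, and LARS2, the mitochondrial one for leucine, had no reads in any of the 6 samples before EGA. YARS had 47 reads after it, in 8 of 10 samples, which is at least 18.0-fold higher against a floor of 3 reads over the group (0.240 CPM). LARS2 had 42 reads, also in 8 of 10 samples, at least 16.1-fold higher against the same floor. Neither passed the filter for the comparison at EGA. The other genes outside that comparison had means after EGA between 1.44 CPM for PARS2 and 13.0 CPM for VARS, with single samples up to 57.2 CPM for VARS in BL and 28.0 CPM for NARS2 in 16C. They were CARS, FARSA, VARS and WARS of the cytosolic set and CARS2, FARS2, HARS2, MARS2, NARS2, PARS2 and SARS2 of the mitochondrial set. PARS2, for proline, had 26 of its 40 reads in MII replicate 1.

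The step from 4C to 8C was the one with most calls among the synthetases. Here 8 of the 26 genes tested were higher in 8C and 1 was lower, beside 17.7% of all loci higher and 19.1% lower (limma, adjusted p under 0.05). The cytosolic genes that rose were AARS, KARS, QARS, SARS and YARS, and the mitochondrial ones NARS2, TARS2 and WARS2. The gene that fell was RARS2.

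By limma with a pseudocount of 1, the fitted differences of SARS, QARS and AARS were above those of the other genes called at this step, which does not rank YARS, at 0 in 4C. SARS rose by 5.22 on the log2 scale (SE 0.73, adjusted p = 1.5e-04, limma), from 2 reads in the 4C embryos to 99 in the 8C embryos. In CPM this was 82.2-fold, with a 95% counting interval of 22.2 to 688. QARS rose by 4.69 (SE 0.84, adjusted p = 7.7e-04, limma). AARS rose by 4.22 (SE 0.86, adjusted p = 0.00184, limma), from 3 to 61 reads, a ratio in CPM of 33.8 with an interval of 11 to 168. KARS went from 16.6 ± 1.80 to 154 ± 57.8 CPM (n = 2), a rise of 3.10 (SE 0.61, adjusted p = 0.00157, limma). All of these differences were called in each of the 25 alternatives run.

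YARS, with no reads in 4C and 18 in 8C, was at least 9.96-fold higher against a floor of 3 reads over both 4C embryos (adjusted p = 0.00679, limma). With 0 reads up to 4C, YARS passed the filter on low counts only through later stages and had to differ. AARS, QARS, SARS, NARS2 and TARS2, at most 4.30 CPM in each sample up to 4C, also passed it only that way. The count of genes higher at this step thus describes the genes tested. NARS2, the mitochondrial enzyme for asparagine, went from 3 to 17 reads, a ratio in CPM of 9.41 with an interval of 2.72 to 50.1 (adjusted p = 0.0347, limma). TARS2 rose by 2.69 (SE 0.86, adjusted p = 0.0241, limma), WARS2 rose by 1.98 (SE 0.66, adjusted p = 0.0294, limma), and RARS2 fell by 2.55 (SE 0.72, adjusted p = 0.0126, limma). NARS2 and TARS2 were not called by edgeR (adjusted p = 0.0577 and 0.109) or DESeq2 (adjusted p = 0.073 and 0.131), nor YARS by DESeq2 (adjusted p = 0.0715). Without 8C replicate 2, the embryo with the high sum of oocyte markers, RARS2 was at -1.48 and not called (adjusted p = 0.121, limma), and TARS2 and WARS2 were at 2.40 and 1.89 and not called (adjusted p = 0.0835 and 0.0775, limma). The calls over all loci were then 3844 of 11112 tested, against 3560 of 9670 with all samples. They were 2003 of 10948 without 4C replicate 1, 1935 of 10920 without 4C replicate 2 and 2470 of 11192 without 8C replicate 1. With 1 sample left at a stage, that sample was assumed to vary like those of the other stages. Without 4C replicate 1, TARS2 was at 1.32 (adjusted p = 0.307, limma), and NARS2, WARS2 and RARS2 were not called either, at 2.29, 2.32 and -2.57. Without 4C replicate 2 the same genes were at 2.74, 1.64 and -2.53 and not called, and TARS2 was called at 4.06. Without 8C replicate 1, NARS2, TARS2 and WARS2 were not called, at 1.81, 2.99 and 2.07. The direction of each gene was thus the same in these fits, while the size moved most for RARS2 with either 8C embryo left out (-3.61 without 8C replicate 1) and for TARS2 with either 4C embryo left out.

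Another set of cytosolic genes was already higher in 4C than in MII. This contrast was chosen after the values were seen. Of the 26 genes tested, 6 were higher in 4C and MARS was lower, beside 6.48% of all loci higher and 2.19% lower (limma, adjusted p under 0.05). Of the 8 mitochondrial genes tested, 0 were called by limma, with 0 at an unadjusted p under 0.05, and 0 were called by edgeR or DESeq2.

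NARS had the smallest p of these. It was 3.99 and 2.19 CPM in MII, 17.3 and 59.2 CPM in 2C, 81.3 and 60.2 CPM in 4C, and 85.4 and 85.6 CPM in 8C. Both 4C embryos were far above both oocytes, with a difference of 3.61 on the log2 scale (SE 0.66, adjusted p = 0.00858, limma), and the 8C embryos lay slightly above them. RARS was 1.77 and 1.75 CPM in MII, 11.3 and 58.9 CPM in 2C, 38.9 and 35.6 CPM in 4C, and 24.8 and 45.2 CPM in 8C. Its difference between 4C and MII was 3.34 (SE 0.69, adjusted p = 0.0125, limma). GARS was 7.98 and 4.82 CPM in MII, 22.6 and 60.4 CPM in 2C, 84.0 and 39.3 CPM in 4C, and 30.9 and 42.3 CPM in 8C, and 4C differed from MII by 2.37 (SE 0.62, adjusted p = 0.0301, limma).

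LARS was 0.886 and 0.877 CPM in MII and 9.03 and 12.3 CPM in 4C, a difference of 2.33 (SE 0.62, adjusted p = 0.0334, limma). HARS went from 0 reads in MII to 23 in 4C, at least 11.3-fold higher against a floor of 3 reads over both oocytes (adjusted p = 0.025, limma). VARS, the cytosolic enzyme for valine, went from 0 to 17 reads, at least 8.38-fold higher (adjusted p = 0.0461, limma). MARS fell by 1.85 (SE 0.55, adjusted p = 0.0482, limma), from 200 ± 40.2 to 92.2 ± 5.19 CPM (n = 2).

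For comparison, the genes that rose most from 4C to 8C were not called from MII to 4C. QARS, AARS and SARS were low at these stages, while KARS was at 13.6 CPM in MII, 31.7 CPM in 2C and 16.6 CPM in 4C. QARS differed by 0.56 (adjusted p = 0.743, limma), AARS by 1.17 (adjusted p = 0.427), SARS by 0.90 (adjusted p = 0.479) and KARS by -0.30 (adjusted p = 0.834) between MII and 4C. In turn, NARS differed by 0.28 (adjusted p = 0.768, limma), RARS by -0.16 (adjusted p = 0.882), GARS by -0.67 (adjusted p = 0.416) and HARS by 2.05 (adjusted p = 0.0639) between 4C and 8C. LARS and TARS, both called higher after EGA, differed by 0.89 (adjusted p = 0.274, limma) and 0.16 (adjusted p = 0.87, limma) at that step. Both contrasts share the 4C embryos, and the difference between them was not tested. LARS, VARS and MARS were not called from MII to 4C by edgeR (adjusted p = 0.07, 0.0629 and 0.0976), and of 25 alternatives the call of MARS was lost in 15, that of VARS in 14 and that of LARS in 8. Fitted differences kept their direction with each sample left out, for example 3.33 to 3.89 for NARS, 3.26 to 3.42 for RARS and 1.83 to 2.91 for GARS, but calls were lost. Without MII replicate 1, only NARS and RARS of the 6 genes were called by limma, and without MII replicate 2, 4C replicate 1 or 4C replicate 2 it was 0. The number of all loci called fell at the same time from 839 of 9670 to 611, 82, 62 and 39 of 10920 to 10992 tested, with the lone sample of a stage assumed to vary like the others.

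**Figure D3:**
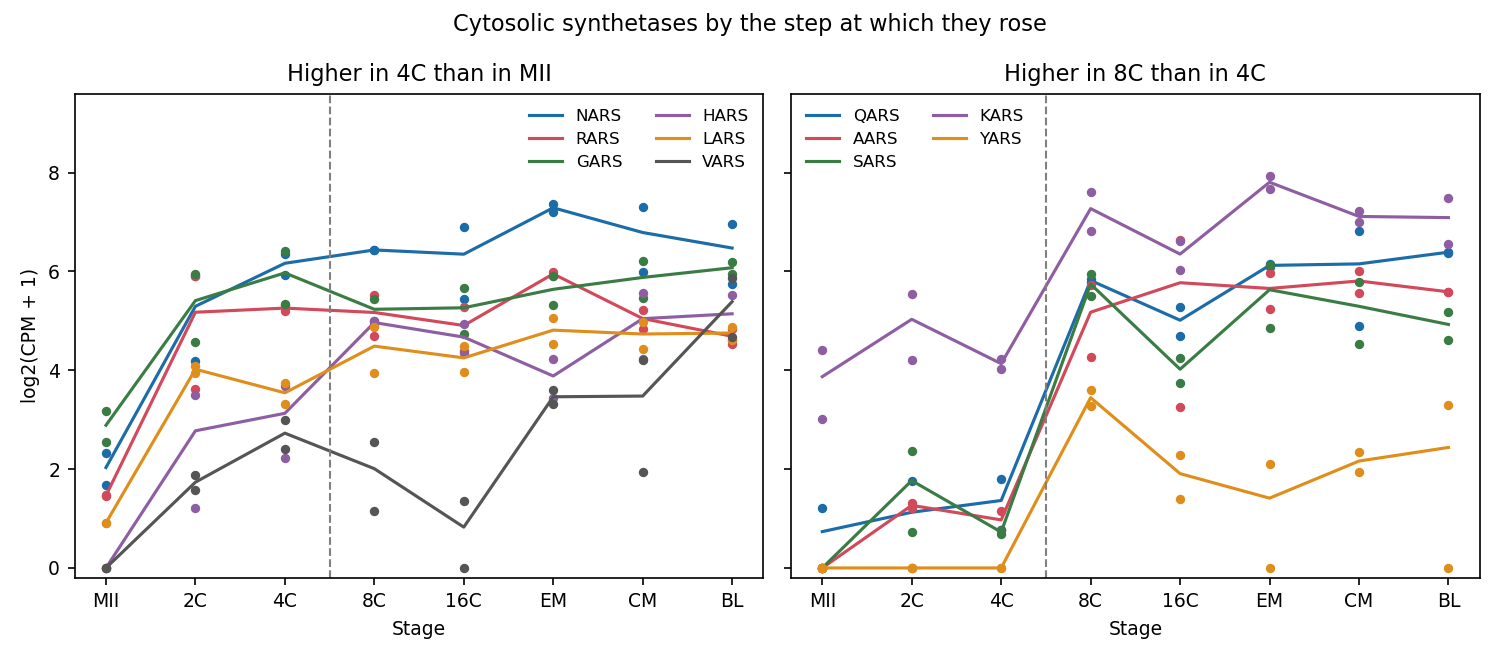
Levels as log2(CPM + 1) per sample (points) and for the stage mean (lines) from MII to BL for genes called higher in 4C than in MII (left: NARS, RARS, GARS, HARS, LARS and VARS) and for cytosolic genes called higher in 8C than in 4C (right: QARS, AARS, SARS, KARS and YARS). On the left 4C is above MII, with NARS at 70.7 against 3.09 CPM. On the right the lines are lower up to 4C than in 8C, with KARS at 16.6 CPM in 4C and 154 CPM in 8C.

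The remaining steps between neighbouring stages held few calls. From MII to 2C, LARS was higher (0.886 and 0.877 against 16.0 and 14.5 CPM, a difference of 2.70, SE 0.62, adjusted p = 0.0463, limma), beside 1.20% of all loci higher and 0.217% lower. At an unadjusted p under 0.05 there were 9 genes at this step, RARS (2.72) and HARS (2.58) among them. LARS was the only call. No gene was called by edgeR, with a pseudocount of 5, with the replicate block or with any of 13 of the 16 samples left out, MII replicates 1 and 2 and 2C replicate 2 among them, while DESeq2 called 4 genes. From 2C to 4C, as from EM to CM, limma called 0 genes, with 0 at an unadjusted p under 0.05 and 0 by edgeR and DESeq2, and 0% of all loci were called.

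From 8C to 16C, limma called 0 genes, beside 0.548% of all loci higher and 0.310% lower. There were 5 genes at an unadjusted p under 0.05, all lower in 16C (FARSA, FARSB, SARS, AARS2 and YARS2), and 0 calls by edgeR and DESeq2. From 16C to EM it was 0 of 26 as well, beside 0.0207% higher and 0.0827% lower, with 6 genes at an unadjusted p under 0.05, 0 by edgeR and 1 by DESeq2. MARS had the smallest p there. From CM to BL, limma, edgeR and DESeq2 called 0 genes, beside 2.92% higher and 1.50% lower by limma, and 1 gene, VARS, had an unadjusted p under 0.05. VARS was 17.4 and 2.86 CPM in CM and 24.6 and 57.2 CPM in BL, a difference of 2.07 (adjusted p = 0.228, limma).

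For 11 amino acids, a cytosolic gene could be set beside a mitochondrial gene with the same stem of its name, both with reads. The cytosolic enzyme for phenylalanine, with subunits encoded by FARSA and FARSB, was not paired with FARS2. Both genes were tested at EGA in 3 of the pairs, and in the other 8 at least 1 gene did not pass the filter. Of the 3 pairs, TARS and TARS2 both rose, AARS rose with AARS2 not called, and RARS2 fell with RARS not called. RARS was 1.75 to 58.9 CPM before EGA, with a median of 23.5, and 20.1 to 62.9 CPM after it, with a median of 32.0. On log2(CPM + 1), RARS2 minus RARS was 1.93 ± 2.07 before EGA (range -0.03 to 4.66, n = 6) and -1.92 ± 0.87 after it (range -3.25 to -0.59, n = 10), so the ranges did not overlap.

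The same difference was taken for other pairs and is given as a description. In the pairs for tyrosine, leucine, cysteine and serine it was set largely by the pseudocount, since before EGA YARS and LARS2 had 0 reads, CARS2 had 4 and SARS2 had 7, so no value is given. Of the remaining pairs, the difference was lower after EGA for alanine (0.98 ± 1.47, n = 6, and -2.63 ± 1.54, n = 10, without overlap of the ranges) and histidine (-0.46 ± 1.48 and -2.97 ± 1.55). It was higher for tryptophan (1.60 ± 0.67 and 2.71 ± 1.15), methionine (-5.93 ± 0.71 and -5.22 ± 1.55), asparagine (-3.65 ± 1.48 and -3.35 ± 1.09) and threonine (-2.51 ± 1.30 and -1.85 ± 1.02). Low counts enter several of these as well, with 10 reads of AARS and 13 of NARS2 before EGA. HARS and HARS2 neighbour each other in the RefSeq annotation of assembly ARS-UCD2.0, and whether reads were counted by strand is not given in the sources used here, so reads of one may stand with the other. HARS2 was 0 to 5.33 CPM before EGA, with a median of 1.83, and 0 to 9.82 CPM after it, with a median of 1.62.

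**Figure D4:**
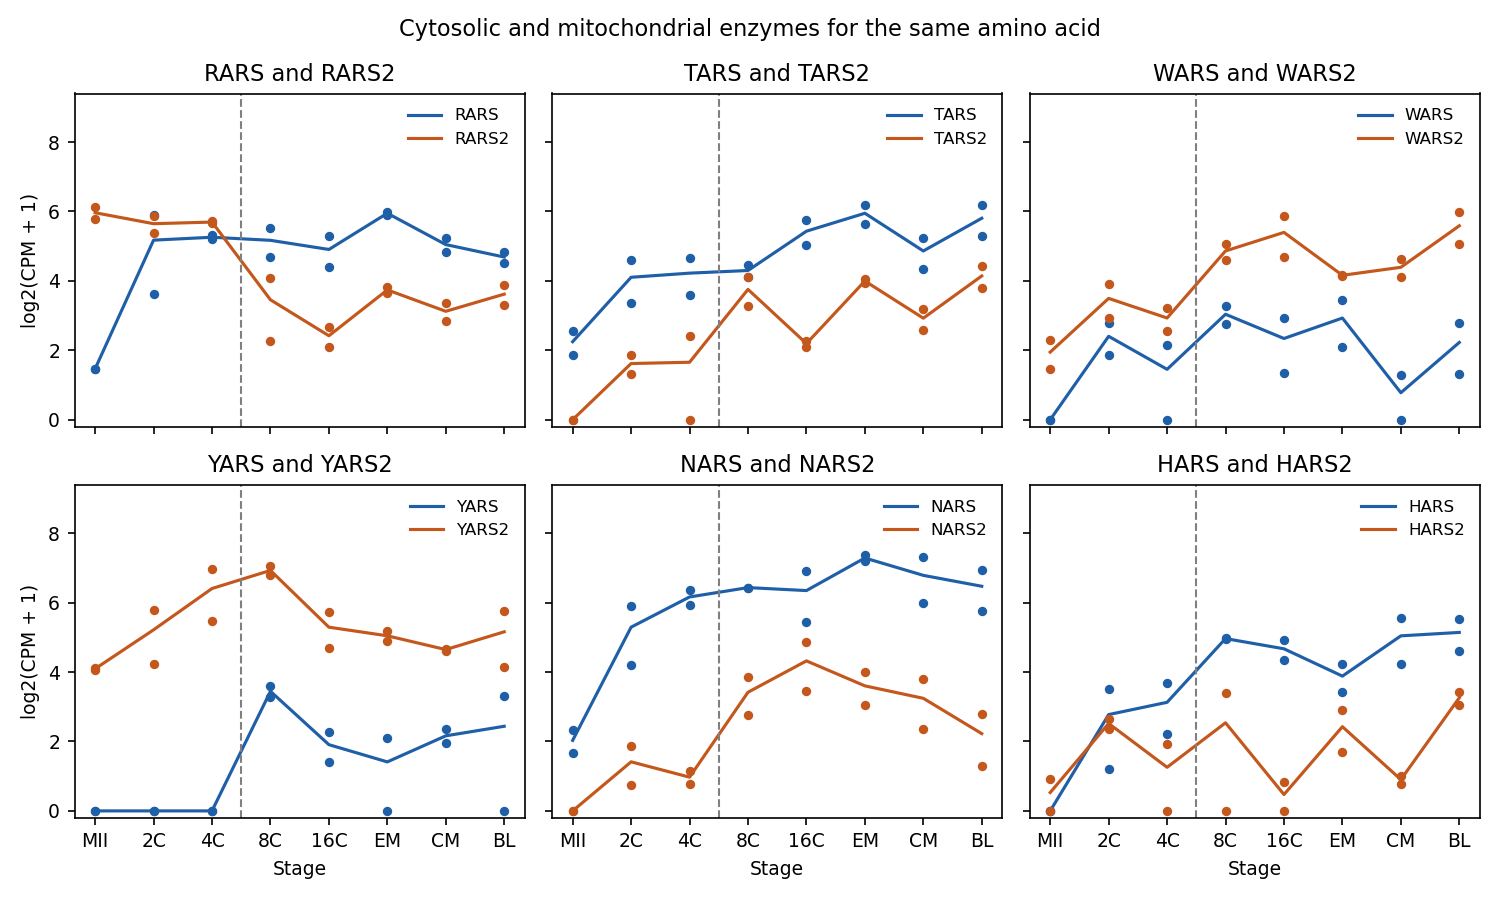
Levels as log2(CPM + 1) per sample (points) and for the stage mean (lines) from MII to BL for 6 cytosolic genes and the mitochondrial gene for the same amino acid. On average RARS2 is at 61.4 CPM in MII, 50.8 CPM in 4C and 9.97 CPM in 8C, while RARS is at 1.76, 37.3 and 35.0 CPM.

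Summed by compartment, the mitochondrial genes took a smaller share of the synthetase reads after EGA than before it. This smaller share rested largely on RARS2. In CPM the cytosolic sum was 266 to 504 CPM before EGA (394 ± 86.1, n = 6) and 512 to 1152 CPM after it (844 ± 188, n = 10), without overlap. The mitochondrial sum was 83.2 to 192 CPM (119 ± 40.6) and 80 to 220 CPM (140 ± 47.2), with nearly the whole range shared. RARS2 alone held 53.8 ± 9.2 CPM of this sum before EGA and 9.1 ± 4.4 CPM after it. On the deposited scale, which the tests used, the cytosolic sum was 428 to 952 before EGA (610 ± 180, n = 6) and 722 to 1107 after it (914 ± 139, n = 10), with overlap, and the mean of the mitochondrial sum went from 183 ± 55.4 to 159 ± 73.9, the opposite direction. The ratio of the sums does not depend on this scaling. Mitochondrial genes took 23.5 ± 7.68% of the synthetase reads before EGA and 14.4 ± 4.35% after it. By stage, this share was highest in 4C (28.8 ± 11.9%, n = 2) and lowest in CM (10.4 ± 1.27%) and EM (10.5 ± 1.28%). In 4C it was 20.4% in replicate 1 and 37.2% in replicate 2. The share was 23.0 ± 6.03% in MII, 18.8 ± 4.07% in 2C and 20.4 ± 2.91% in 8C. The log2 ratio of the mitochondrial to the cytosolic sum was -1.75 ± 0.59 before EGA and -2.62 ± 0.50 after it, a change of -0.87, and the ranges overlapped. The change was -1.40 without MARS and YARS2, the highest gene of each class, with RARS2 still in the sum. A ratio without RARS2 was not computed. No p is given for these sums, since the genes were chosen with results known.

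**Figure D5:**
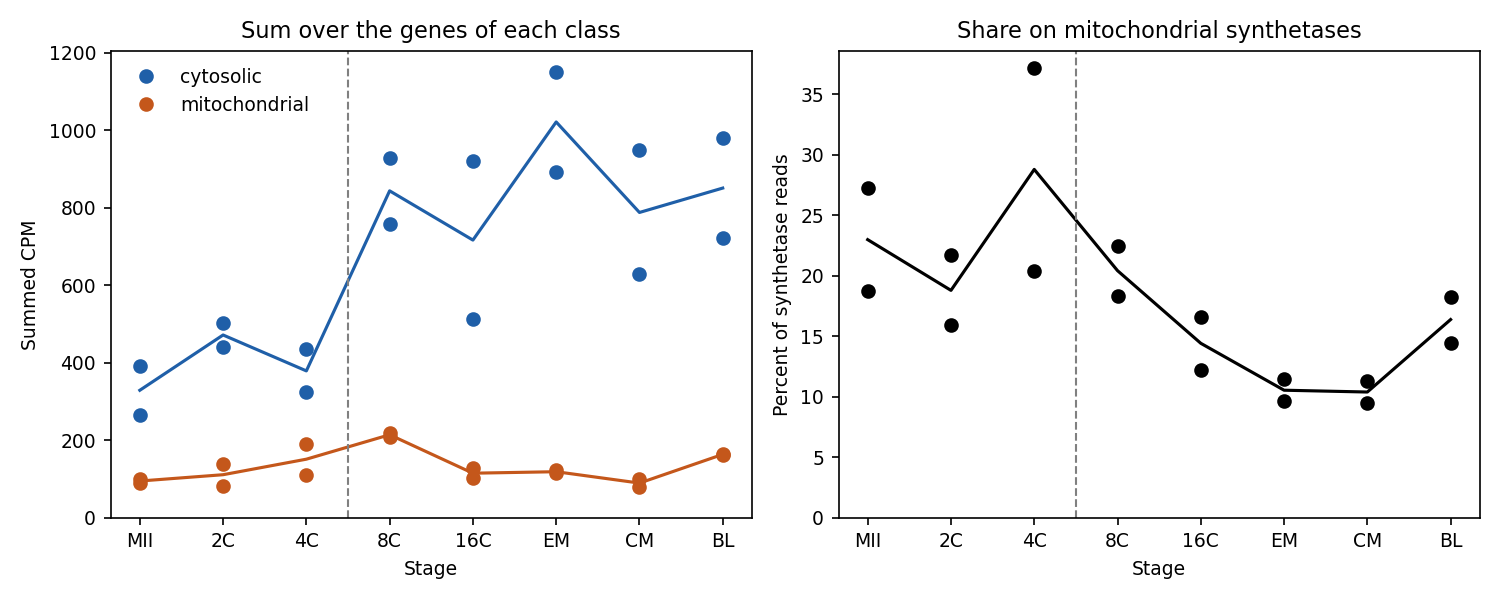
Left, CPM summed over the 20 cytosolic and over the 14 mitochondrial genes in each sample (points) with stage means (lines); right, the percent of that total in mitochondrial genes. The cytosolic sum is 379 CPM in 4C and 844 CPM in 8C, and the mitochondrial percent is 28.8 in 4C, 20.4 in 8C and 10.4 in CM.

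Other genes of the same pathway were taken from fixed lists. Of 8 scaffolds of the multisynthetase complex and elongation factors, all were tested at EGA, and 6 rose, 1 fell and 1 was not called, beside 36.9% of all loci higher and 29.9% lower. EEF1B2, a subunit of the factor that recharges eEF1A with GTP, rose by 5.23 (SE 0.64, adjusted p = 4.5e-07, limma), and EEF1D, of the same factor, by 4.87 (SE 0.47, adjusted p = 1.6e-08, limma). The scaffolds differed among themselves. AIMP1 was 0 to 2.07 CPM before EGA and 19.1 to 96.3 CPM after it, with a rise of 4.68 (SE 0.43, adjusted p = 6.9e-09, limma) and no overlap. AIMP1 and EEF1D passed the filter only through their levels after EGA. AIMP2 was 71.0 to 481 CPM before and 39.4 to 212 CPM after, and fell by 1.30 (SE 0.45, adjusted p = 0.0146, limma), a call that was lost with scaling to total reads and without MII replicate 1. EEF1E1, the third scaffold, differed by -0.01 (adjusted p = 0.978, limma). The median of the list was 3.70.

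Of 10 genes that process, charge or deliver mitochondrial tRNAs, 8 were found, 6 were tested at EGA, 4 rose and 1 fell, with a median of 1.56, beside the same 36.9% and 29.9% of all loci. TSFM, the exchange factor of the mitochondrial elongation factor, rose by 1.13, a call lost in 6 of 27 alternatives, edgeR among them. QRSL1 encodes a subunit of the amidotransferase that makes mitochondrial glutaminyl-tRNA, for which there is no mitochondrial glutamine enzyme. It was 0 to 5.33 CPM before EGA and 106 to 682 CPM after it, a rise of 6.22 by limma without overlap. The name QRSL1 is carried by 3 loci, of which the highest was used. TUFM, the mitochondrial elongation factor that delivers charged tRNAs, rose by 3.82. QRSL1 and TUFM passed the filter only through their levels after EGA. TRNT1, which adds the CCA end to tRNAs of both compartments, was 108 to 410 CPM before EGA and 9.62 to 81.4 CPM after it, and fell by 2.67, also without overlap. QRSL1, TUFM and TRNT1 were called in 27 of 27 alternatives. By stage, TRNT1 was 401 ± 11.8 CPM in MII and 146 ± 18.8 CPM in 2C (n = 2). It was 141 ± 47.3 CPM in 4C and 44.4 ± 49.2 CPM in 8C. Its fall from 4C to 8C was not called by edgeR or DESeq2.

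Of 10 genes of the amino acid response, in which uncharged tRNAs lead to ATF4, a transcription factor known to act on synthetase genes, 9 were found and 5 tested at EGA, of which 1 rose and 1 fell, beside 36.9% of all loci higher and 29.9% lower. ATF4 rose by 1.21 (SE 0.39, adjusted p = 0.00997, limma) and SESN2, a leucine-binding stress protein, fell by 3.77 (SE 0.44, adjusted p = 2.2e-07, limma), and the median was 0.21. CHAC1, an enzyme that degrades glutathione and a known target of ATF4, was 0.443 and 0 CPM in MII, 2.00 and 5.03 CPM in 2C, 15.3 and 10.5 CPM in 4C, and 0 and 0.962 CPM in 8C. PSAT1, an enzyme of serine synthesis, was 0.443 and 0 CPM in MII, 11.3 and 2.96 CPM in 2C, 13.9 and 17.8 CPM in 4C, and 0 and 3.85 CPM in 8C. Up to 8C, both had their highest stage mean in 4C, and PSAT1 was higher again in BL, at 54.0 and 25.0 CPM, while CHAC1 was at 0 in every sample after 8C. Both were singled out after their values were seen. They were called higher in 4C than in MII (adjusted p = 0.00919 and 0.0166, limma), beside 6.48% of all loci higher. The calls were lost without MII replicate 2, 4C replicate 1 or 4C replicate 2, and CHAC1 was not called by edgeR. The other genes of the list tested there were not called. ASNS was at 2.18, ATF4 at 0.92, EIF2AK4 at -0.485, DDIT3 at -0.58 and SESN2 at -1.98. A response of the list at 4C was not tested.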

How the data were processed

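Reads of 16 samples, 2 at each of 8 stages, were counted on 27393 loci. The deposited values are a signal: after trimming and mapping, the authors counted reads per locus and scaled every library by its own size factor. The submitters' processing notes name cutadapt, FastQC, TopHat, Cufflinks and HTSeq, and the genome build is not given in the sources used here. Dividing a library's values by its smallest value above 0 gave whole reads for 100% of its values above 0 (tolerance 0.01), and these reads were used for CPM. Depth was 607672 to 3379426 reads per sample. RNA was amplified in 2 rounds without molecular identifiers, so floors and intervals cover counting error only.

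Members and lists were chosen with earlier results of these data known. The main test was limma 3.58.1 (R 4.3.3; trend, empirical Bayes) on log2(deposited value + 1). P-values were adjusted over all loci by Benjamini-Hochberg, at 0.05. Loci were kept by filterByExpr of edgeR 4.0.16, 9670 for the 8-stage model, from which contrasts between stages were taken, and 6910 for the comparison at EGA (6 against 10 samples). CPM, sums and figures were made in Python 3.11.15 (numpy 2.4.6, pandas 2.3.3, scipy 1.17.1, matplotlib 3.10.9). Counting intervals are exact binomial (95%). The tests were checked on simulated counts.

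The genes given in all samples follow a rule: among the members called at EGA, the 5 that rose most and the 5 that fell most (1 fell), the highest member of each class, and pairs called in opposite directions (0), and from the other lists up to 4 called genes with the largest change. NARS, RARS, GARS, LARS, KARS, CHAC1 and PSAT1 were added after their values were seen. In RefSeq (ARS-UCD2.0), 34 members were matched, 18 by symbol and 16 by synonym.

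Alternatives were edgeR and DESeq2 1.42.0 on the recovered reads, scaling by TMM or by total reads, a pseudocount of 0.5 or 5, leaving out the filter, summed loci, a contrast of period means in the 8-stage model, no 8C samples, the replicate number as a block and each sample left out. The contrast of 4C with MII was added after seeing the data. Same-numbered samples are different oocytes or embryos. The p-values between stages measure the spread between the samples of a stage, and those at EGA the spread within a period, differences between its stages included. Whether the samples came from different animals is not stated in the labels. No sequences of these genes were used here.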

Additional observations from a re-analysis of the deposited data

Results flagged for a closer look

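SARS in 2C replicate 2 stood apart from the other samples before EGA. Its level was 4.14 CPM, against 0 to 0.694 CPM in the other 5, and on the scale of log2(deposited value + 1) the gap to the nearest sample was 0.639 of the whole range, above the Dixon limit of 0.625 for 6 samples. The same test was run on 38 groups of values and marked 1, where chance marks about 1 in 20. The rise of SARS at EGA was called with each sample left out in turn, by 4.13 to 4.66 on the log2 scale.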

How the results depend on the processing

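At EGA, the 8 cytosolic genes called higher became 12 with the contrast of period means in the 8-stage model (RARS among them, adjusted p = 0.0304, limma), 10 with no filter and 6 with edgeR. That contrast used the filter of the 8-stage model (9670 loci against 6910). It thus also tested genes that the main comparison left out. The calls of QARS, AARS, SARS, HARS, KARS, TARS, WARS2 and RARS2 held in all 27 alternatives, and TARS2 in all 26 in which it passed the filter. The count of cytosolic genes called lower, 0, became 1 (MARS) with the contrast of period means and without the 8C samples (0 to 1 with each sample left out). The count of mitochondrial genes called higher, 2, became 6 with no filter, 4 with the contrast of period means and 1 without the 8C samples, where TARS2 did not pass the filter. From 4C to 8C, DESeq2 called 5 genes higher, and leaving out each sample gave 6 to 9 higher and 0 to 1 lower. From MII to 4C, the 6 genes higher became 3 with a pseudocount of 5 (0 to 6 with each sample left out). The 1 gene lower became 0 with TMM factors, total reads, no filter, edgeR or the replicate block, and 2 with a pseudocount of 5 or DESeq2 (0 to 2). From MII to 2C, 1 call became 4 with total reads or DESeq2 and 0 with a pseudocount of 5, edgeR or the replicate block (0 to 3). From 16C to EM, DESeq2 gave 1 call. The causes were not tested. On the deposited scale the log2 change of the cytosolic sum was 0.62 (1.10 in CPM) and that of the mitochondrial sum -0.26 (0.23 in CPM). The change in the log2 ratio of the class sums was -1.40 without the highest gene of each class and -1.0 to -0.67 with each sample left out. RARS2 was in the mitochondrial sum in each of these.

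Directions that turned belonged to genes not called. With total reads, which moved the median of all loci to 0.67, DARS was 0.08, IARS 0.42 and YARS2 0.24. GARS was -0.057 by edgeR. With single samples left out, IARS ranged from -0.19 to 0.24 and YARS2 from -0.47 to 0.11. The replicate numbers do not pair samples: correlations of same-numbered deviations were -0.26 to 0.13 over 28 pairs of stages, with 1 over 0.1, and the block left the counts at EGA as they were (8 and 0 cytosolic, 2 and 1 mitochondrial genes). The floor of 3 reads reached 4.94 CPM, so levels below it could not be told from 0 in the shallowest sample.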
